A study of Mus musculus with 4 samples.

Results

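The miRNAs described here are mmu-miR-328, mmu-miR-468, mmu-miR-135b and mmu-miR-335-3p (the lowered miRNAs), together with mmu-miR-135a, a close relative of miR-135b, and mmu-miR-335-5p, the other arm of the miR-335 hairpin. They are 6 of the 567 mouse miRNAs on the array. The lowered miRNAs are shown by the study as reduced when androgen action is blocked in the mouse testis. They were chosen on these same arrays, so their levels are given as a description with no test. The study also measured selected miRNAs by real-time RT-PCR on pooled Sertoli cells, which is not examined here. The relative and the other arm were taken by name. Sertoli cells, the somatic cells that nurse germ cells in the seminiferous tubule, were purified from the testes of adult B6129 male mice aged 5 to 7 weeks. The methods of the study give pools of 5 to 7 mice, and its legend for the array heat map gives 6 per group. Sham mice received saline injections and a tube implant. Flut+Acy mice were given the androgen receptor blocker flutamide together with acyline, an antagonist of gonadotropin-releasing hormone that lowers testosterone production. Flut+Acy+T mice received flutamide and acyline with testosterone replaced through an implant. Sham and Flut+Acy+T had 1 array each and Flut+Acy had 2, and the labels do not say whether the Flut+Acy arrays came from separate pools of mice.

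MicroRNAs are short RNAs that guide Argonaute proteins to messenger RNAs, mainly through the seed, bases 2 to 8 from their 5′ end. Each is cut from a hairpin that yields a 5p and a 3p arm, and often only a single arm of the duplex accumulates. miR-135a and miR-135b are known as repressors of Apc, a brake on Wnt signaling. miR-335 is cut from an intron of the imprinted gene Mest and its 5p arm is known as a suppressor of metastasis in breast cancer. miR-328 is known to repress Abcg2, which encodes a drug efflux transporter.

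RefSeq (GRCm38.p6) supplied mature sequences for 3 of the 6 miRNAs, which are shown to compare the seeds of the miR-335 arms and to give the seed of the miR-135a relative. Capitals mark the seed.
miR-335-3p: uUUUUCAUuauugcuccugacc
miR-335-5p: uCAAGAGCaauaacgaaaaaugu
miR-135a: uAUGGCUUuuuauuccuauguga
The 3p arm of miR-335 is 22 bases long and the 5p arm 23, and they share no seed. miR-135a is 23 bases long and is made from 2 hairpins. No sequence was matched for miR-328, miR-468 and miR-135b.

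On mm9, the probes for miR-328 covered chr8:107832279-107832296, and the RefSeq annotation places its hairpin within Elmo3, which encodes a protein of cell engulfment and motility. Probes for miR-335-3p covered chr6:30691354-30691375 and those for miR-335-5p chr6:30691318-30691336, with the hairpin within Mest. Probes for miR-468 covered chr6:81846596-81846612, where the hairpin overlaps no other annotated gene and Gcfc2 is the nearest coding gene. Probes for miR-135b covered chr1:134094680-134094702, where the hairpin overlaps Lemd1 and the noncoding gene Gm29695. miR-135a was assigned to chr10:91534886-91534908, a hairpin that lies outside other genes with Nedd1 nearest, and its other hairpin on chromosome 9 overlaps Glyctk.

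The Flut+Acy+T array stood apart from the other 3. Its 672 negative-control spots had a median signal of 97.1 scanner units and an upper quartile of 1431, against medians of 1.76 to 4.05 and upper quartiles of 3.05 to 6.14 on the other arrays. It detected 102 miRNAs, with a lowest detected signal of 238, whereas the others detected 193 to 275 with a lowest detected signal of 0.766 to 2.67. Nonuniform marks were set on 2.95% of its spots for mouse miRNAs, against at most 0.0265% elsewhere. Results from it are given separately from the comparison of Flut+Acy with Sham.

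The label Sertoli cells was set against known miRNAs of testis cell types. miR-202-3p, miR-202-5p and miR-204, the Sertoli list, were detected on Sham for 2 of 3, on both Flut+Acy arrays for 3 of 3 and on Flut+Acy+T for 1 of 3. After quantile normalization their signals summed to 527 (Sham), 736 and 714 (Flut+Acy) and 890 (Flut+Acy+T). Of 6 germ cell miRNAs, miR-449b, miR-449c and miR-122 were detected on no array, and the other 3 were detected on Sham and Flut+Acy. That list summed to 1659 (Sham), 6995 and 5845 (Flut+Acy) and 2168 (Flut+Acy+T). The 3 detected on Sham and Flut+Acy, miR-34b-5p, miR-34c and miR-449a, are among those the study lists as altered on these arrays. The rise of this sum is thus not independent of that choice and is no check of the label. Muscle miRNAs, with 5 of 5 detected on Sham and Flut+Acy, summed to 5142 (Sham) and to 2717 and 2860 (Flut+Acy). Leukocyte miRNAs summed to 689 (Sham) and to 367 and 365 (Flut+Acy), and erythroid miRNAs to 420 and to 179 and 175. miR-126-3p and miR-126-5p of endothelium summed to 1647 and to 2062 and 1938. On Sham, detection held for 2 of 5 leukocyte, 1 of 3 erythroid and 2 of 2 endothelial miRNAs, and on the Flut+Acy arrays for 5 and 4, 2 and 2, and 2 and 2. Flut+Acy+T detected 2 of 6 germ cell and 3 of 5 muscle miRNAs, 1 of the 2 endothelial and none of the leukocyte and erythroid miRNAs. Its sums were 3180 for muscle, 326 for leukocytes, 138 for erythroid cells and 3279 for endothelium. Before normalization the sum of every list was higher in Flut+Acy than in Sham. Muscle sums were 1785 (Sham) and 2580 and 3091 (Flut+Acy). In the same order, sums were 139 and 279 and 317 for leukocytes, and 107 and 134 and 148 for erythroid cells. Germ cell sums were 475 (Sham) and 7081 and 7333 (Flut+Acy). Sertoli sums were 127 and 715 and 803, and endothelial sums 649 and 1986 and 2155, in the same order.

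Detection split the 6 miRNAs into 4 patterns. miR-328 and miR-468 were detected on all 4 arrays. miR-135b was detected in Sham and in both Flut+Acy replicates but not on Flut+Acy+T, and miR-335-3p on Flut+Acy+T alone. miR-135a and miR-335-5p were detected on none. A fall in Flut+Acy could thus be measured for 3 of the 4 lowered miRNAs, since miR-335-3p had no detected signal in either Sham or Flut+Acy.

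Total signal, which the scanner software sums over the probes of a miRNA before any normalization between arrays, was low for miR-328 in Sham and Flut+Acy. The Sham array read 9.24 units with an error of 2.58 given by the software, the Flut+Acy arrays 15.4 and 28.9 (errors 2.96 and 4.55) and the Flut+Acy+T array 1286 (error 161). Both Flut+Acy arrays therefore lay above Sham before normalization, and Flut+Acy+T lay far above all. For miR-468, total signal was 12.5 (Sham), 19.6 and 20.3 (Flut+Acy) and 807 (Flut+Acy+T), with errors of 1.87, 2.14, 2.97 and 99.6. The order of the groups was the same as for miR-328, and the Flut+Acy arrays differed by less than their errors. miR-135b gave 16.2 (Sham), 16.5 and 22.7 (Flut+Acy) and 257 (Flut+Acy+T), with errors of 2.74, 2.89, 4.21 and 125. Sham and Flut+Acy replicate 1 lay within their errors of each other.

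miR-335-3p gave 2.97 (Sham), 4.39 and 9.26 (Flut+Acy) and 1418 (Flut+Acy+T), with errors of 1.75, 1.88, 2.78 and 117. Its readings on Sham and Flut+Acy were close to those of the negative controls: 42.7% of control spots on Sham were at or above its median spot, and 31.4% and 15.5% on Flut+Acy. For miR-328, miR-468 and miR-135b that share was at most 1.64% on the same 3 arrays. miR-135a read 1.51, 0.932, 6.54 and 249 in the order Sham, Flut+Acy replicates 1 and 2, and Flut+Acy+T, and miR-335-5p read -2.08, 1.21, 1.77 and -203. Neither passed the detection call on any array.

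**Figure D1:**
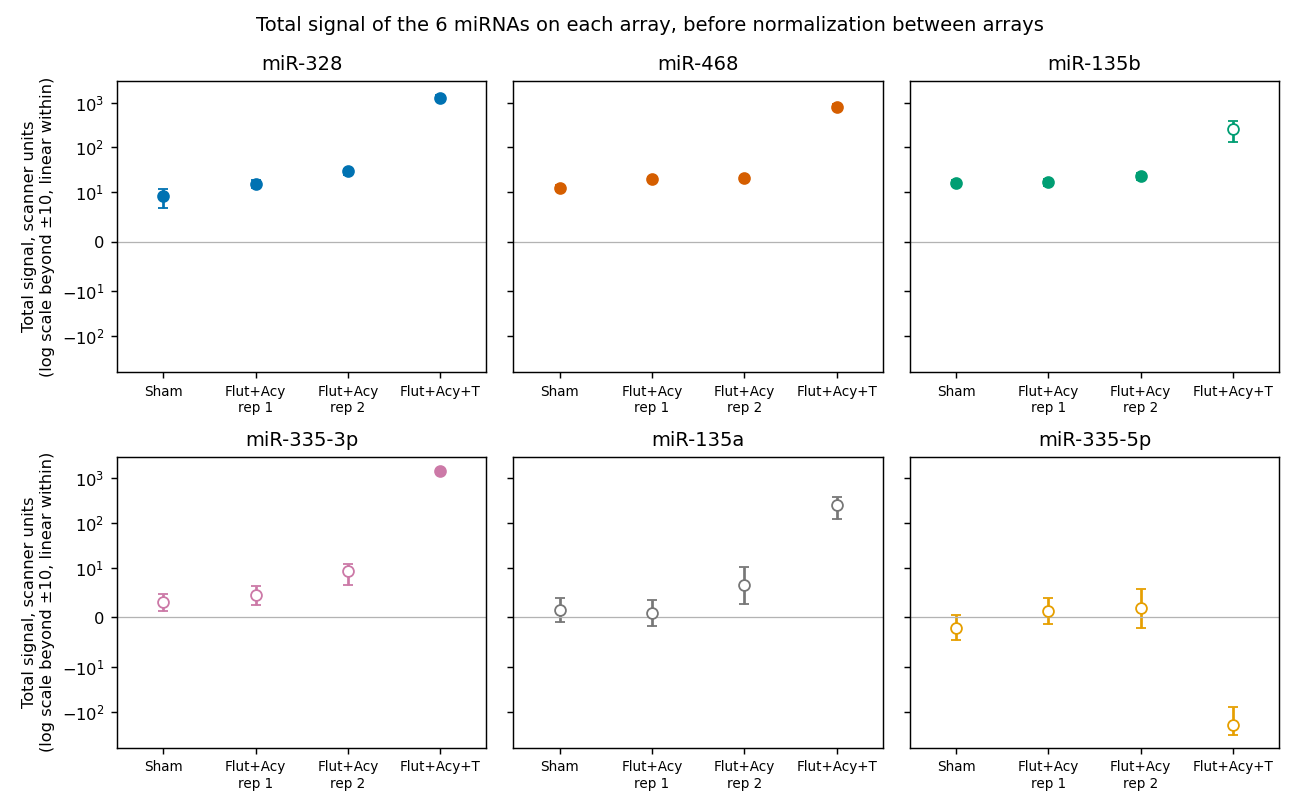
Total signal in scanner units (log scale beyond 10 units from 0, linear within) for each of the 6 miRNAs on the Sham, Flut+Acy and Flut+Acy+T arrays. Bars are the scanner software's error and open symbols are arrays on which the miRNA was not detected. miR-328 and miR-468 rise from 9.24 and 12.5 on Sham to 1286 and 807 on Flut+Acy+T, while miR-335-5p stays at or below 1.77.

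Against Sham, miR-328, miR-468 and miR-135b were lower in Flut+Acy after quantile normalization, which gives every array the same distribution of signals. On the log2 scale miR-328 stood at 6.08 on Sham and at 4.92 and 5.45 on Flut+Acy, a difference of -0.89 with an SD of 0.37 between the Flut+Acy arrays (n = 2). miR-468 stood at 6.48 on Sham and at 5.24 and 4.95 on Flut+Acy, a difference of -1.38 (SD 0.21, n = 2). miR-135b stood at 6.63 on Sham and at 4.96 and 5.08 on Flut+Acy, a difference of -1.61 (SD 0.085, n = 2). For all 3, both Flut+Acy arrays lay below the Sham array, which the choice of these miRNAs on this contrast had already fixed. miR-468 and miR-135b passed a 2-fold threshold and miR-328 did not. Among the 283 miRNAs with a detected signal in either group, a fall of at least 2-fold was found for 47 (16.6%) and a rise of that size for 64 (22.6%), and with detection required on all 3 arrays a fall was found for 35 of 189 (18.5%). limma, fitted across 298 miRNAs, passed 85 (28.5%) as lower and 76 (25.5%) as higher at an adjusted p of 0.05. That balance depended on the scaling, with 30 lower and 111 higher under the 75th percentile of miRNAs detected on all arrays, 51 lower and 69 higher in the deposited values, and 0 lower and 218 higher with no normalization between arrays. Because the lowered miRNAs were chosen on this contrast, nothing is read from their count. Sham had a single pool and array, so its own spread is unknown. limma took its spread from the 2 Flut+Acy arrays alone, which may not be separate pools. Its counts therefore do not measure variation among mice. In RNA from a purified population, fewer cells of a type and less RNA per cell cannot be told apart, and the part that the germ cell, muscle, leukocyte and erythroid signals above had in these differences was not tested.

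The falls were relative to other miRNAs. Before normalization, 187 of the 189 miRNAs that the Sham array and both Flut+Acy arrays detected had a higher mean log2 signal in Flut+Acy, with a median log2 ratio of 1.54 and quartiles of 0.91 and 2.36. miR-328 was 1.66-fold and 3.12-fold higher than Sham on the 2 Flut+Acy arrays, a mean log2 ratio of 1.19, and 69 of the 189 had a lower ratio. miR-468 was 1.57-fold and 1.62-fold higher (mean log2 ratio 0.67, with 30 of the 189 lower). miR-135b was 1.02-fold and 1.40-fold higher (mean log2 ratio 0.25, with 7 lower). All 3 thus gained less signal than the median miRNA between Sham and Flut+Acy, miR-135b the least and miR-328 the most. Positive total signal per array was 57940 units on Sham and 139602 and 161460 on Flut+Acy.

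Places within an array gave the same order. Quantile normalization sets each signal from its place, so this order is not separate support for the falls. Among the 567 miRNAs ordered from the brightest, miR-135b was in place 143 on Sham and in places 227 and 220 on Flut+Acy. miR-468 moved from place 154 to places 212 and 228, and miR-328 from place 174 to places 230 and 201. Of the 189, 119 (63.0%) also stood in a lower place in both Flut+Acy replicates. Taking the smaller of its losses on the Flut+Acy arrays, miR-135b lost 77 places and 2 of the 189 lost more, miR-468 lost 58 and 12 lost more, and miR-328 lost 27 and 51 lost more.

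**Figure D2:**
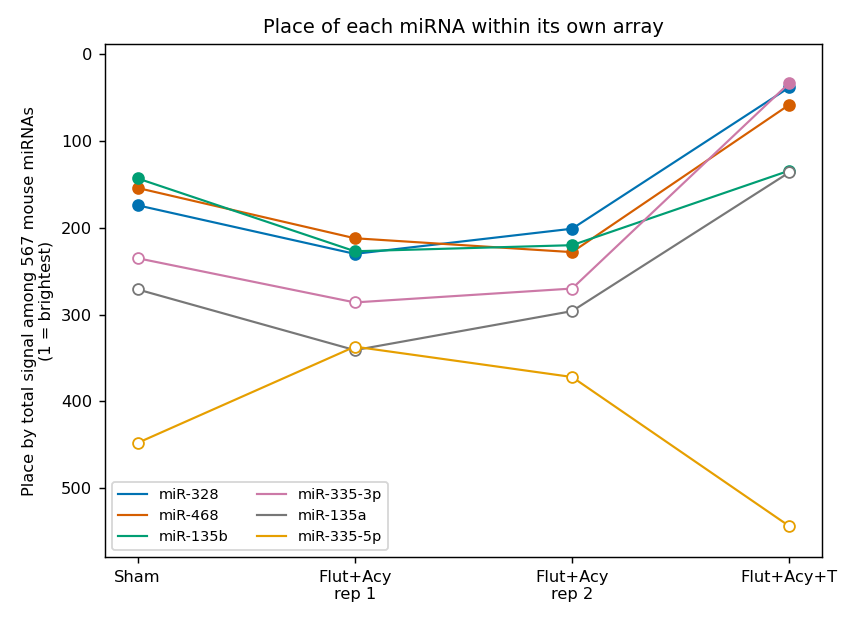
Place of each of the 6 miRNAs by total signal among the 567 mouse miRNAs of its own array (vertical axis, 1 is the brightest) on the 4 arrays; open symbols mark arrays on which it was not detected. miR-328, miR-468 and miR-135b stand lower in both Flut+Acy replicates than in Sham, and miR-335-3p, not detected on Sham or Flut+Acy, is in place 33 on Flut+Acy+T.

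Size and sign depended on the scaling. In the table of values that the authors quantile-normalized and deposited, miR-328 was 35.1 on Sham and 9.65 and 17.8 on Flut+Acy, miR-468 was 36.3 against 13.2 and 10.4, and miR-135b was 55.6 against 12.4 and 12.9. On those values the log2 differences were -1.42, -1.63 and -2.13, larger than from the total signals. When each array was scaled to the 75th percentile of the miRNAs detected on all arrays, the differences were -0.16 for miR-328, -0.68 for miR-468 and -1.09 for miR-135b. With normexp background correction they were -0.33, -0.43 and -0.50, and with no normalization between arrays 1.19, 0.67 and 0.25. normexp here added an offset of 50 units to every spot, which by itself shrinks log2 differences of low signals. The median spots of these miRNAs on Sham and Flut+Acy were 8.61 to 21.5 units. miR-135b was the lowest of the 3 under each of these settings.

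**Figure D3:**
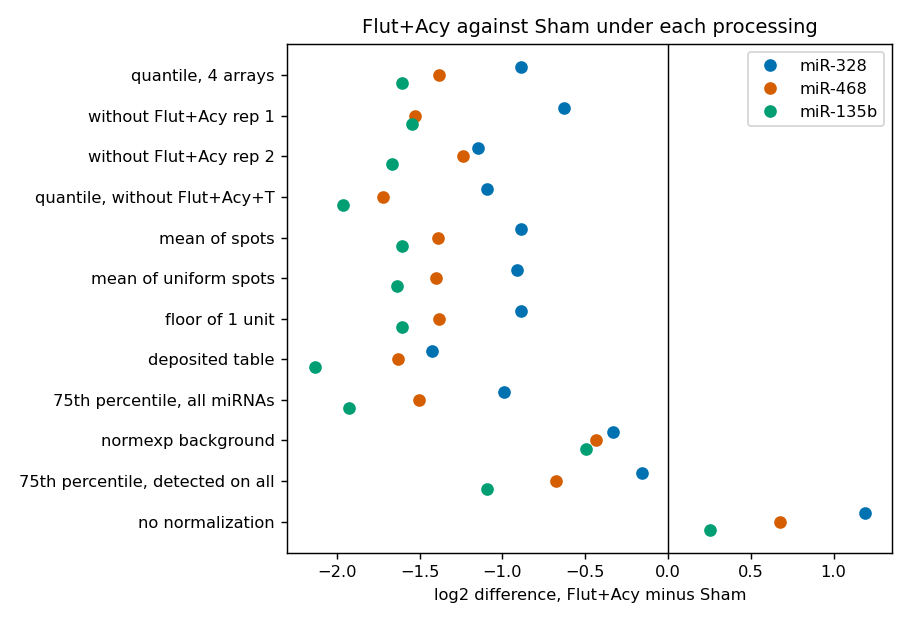
Log2 difference between Flut+Acy and Sham (horizontal axis, 0 marked by the line) for miR-328, miR-468 and miR-135b under each way of processing the same 4 arrays. All settings but the absence of normalization between arrays place the 3 miRNAs below 0, and the values run from -2.13 to 1.19.

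On Flut+Acy+T, miR-328, miR-468 and miR-335-3p read far above both other groups. The log2 level of miR-328 was 9.86, which is 4.68 above Flut+Acy and 3.79 above Sham. miR-468 reached 9.08, or 3.98 above Flut+Acy and 2.60 above Sham. miR-335-3p reached 10.02 and was at least 146-fold higher than Flut+Acy and at least 39.7-fold higher than Sham. These folds are bounds because miR-335-3p was not detected in the other groups, where its normalized reading, or the common floor of 5.46 units if that was larger, stood in for its level. The folds hold for this processing only, and the bound covers only the groups without detection. On Flut+Acy+T the median spot of miR-335-3p, 963 units, lay within the range of the negative-control sequences' medians, 41.7 to 2992 units. The part of the raised controls in these folds was not tested. With normexp the bounds were log2 differences of 3.00 against Flut+Acy and 2.84 against Sham, and with the 75th percentile of all miRNAs they were 5.91 and 5.09, against 7.19 and 5.31 here. The differences of the detected miRNAs moved as well. For miR-328 they were 2.58 and 2.25 with normexp and 5.93 and 7.12 with no normalization between arrays, and for miR-468 they were 1.98 and 1.54, and 5.34 and 6.01. For miR-135b, at 6.80 but not detected, no fold is given. At least 2-fold higher signals on Flut+Acy+T than on Flut+Acy were found for 52 of 297 miRNAs, or 17.5%, and than on Sham for 39 of 218, or 17.9%. With detection required on every array compared, these counts were 18 of 83 (21.7%) and 12 of 77 (15.6%). There is no replicate of Flut+Acy+T, so no spread stands behind these differences.

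miR-328 and miR-468, detected in both groups, were higher on Flut+Acy+T than on Sham under each processing tried. The study describes the lowered miRNAs it selected for RT-PCR as returned by testosterone to control levels on the arrays. Its list of RT-PCR primers includes miR-328, miR-468 and miR-335-3p. By place, miR-328 was 38 and miR-468 58 of 567 on Flut+Acy+T, against 174 and 154 on Sham, and miR-335-3p, not detected on Sham, was in place 33. Deposited values were 457 for miR-328 and 194 for miR-468 on Flut+Acy+T, against 35.1 and 36.3 on Sham, and 467 for miR-335-3p. The deposited value of miR-135b was 38.7 on Flut+Acy+T and 55.6 on Sham, whereas the quantile-normalized total signal was 6.80 against 6.63 on the log2 scale, so the sign of that difference depended on the processing. Of the 102 miRNAs detected on this array, 15 were detected on no other, and miR-335-3p was the brightest of the 15.

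Negative controls rose on the same array as these miRNAs. On Flut+Acy+T, 29.8% of the 672 negative-control spots were at or above the median spot of miR-328 (947 units), 35.3% were at or above that of miR-468 (551 units) and 29.8% at or above that of miR-335-3p (963 units). For miR-135b and miR-135a, with median spots of 209 and 158 units, the shares were 47.0% and 48.4%. miR-335-5p, at a median spot of -146 units, lay at or below 99.6% of the controls. The 6 control sequences had medians from 41.7 to 2992 units on Flut+Acy+T and from 1.61 to 7.45 on the other arrays, while the 288 spots of the structural control had a median of -57.4. The shares above are over all 672 spots, these structural spots included. Sequences with medians of 1810, 1913 and 2992 units lay above the median spots of miR-328, miR-468 and miR-335-3p. Those at 41.7, 330 and 547 units lay below them. Nonuniform marks were set on 24 of the 80 spots (30.0%) of the 4 lowered miRNAs. They were also set on 28.3% of the negative-control spots of this array, and on 308 of 11220 spots (2.75%) of the other mouse miRNAs that are not members. miR-335-3p had 10 such spots of 20, and only 2 of the 567 miRNAs had 10 or more. miR-468 had 8 of 20 and miR-328 had 4 of 20, with 3 miRNAs at 8 or more and 19 at 4 or more. Of those 19, 16 were among the 102 miRNAs detected on this array. Without the nonuniform spots, Flut+Acy+T exceeded Flut+Acy by 4.68 for miR-328, 3.80 for miR-468 and at least 7.14 for miR-335-3p on the log2 scale. The part of the raised controls in these signals was not tested.

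**Figure D4:**
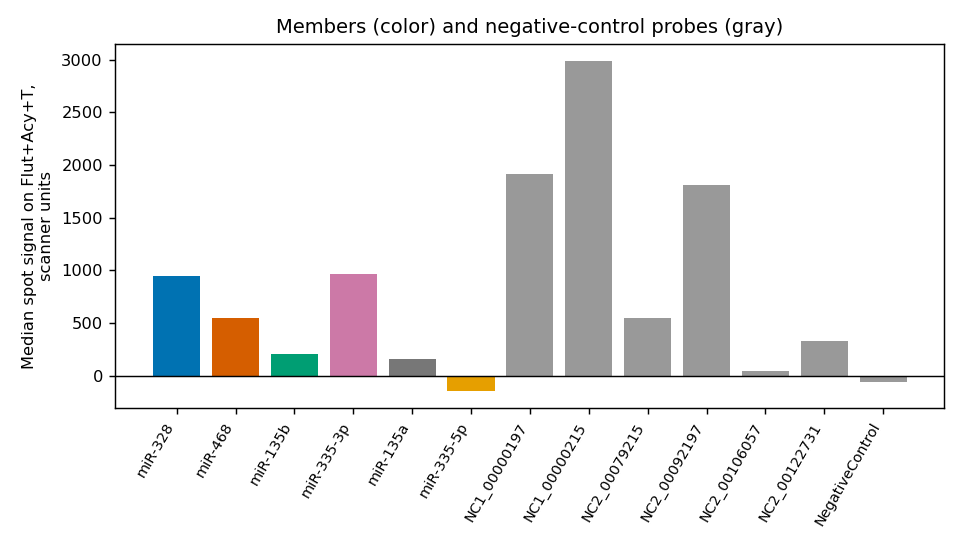
Median spot signal on the Flut+Acy+T array in scanner units for the 6 miRNAs (color) and for the 6 negative-control sequences and the structural control (gray). miR-328 and miR-335-3p, at 947 and 963 units, lie within the control sequences' range of 41.7 to 2992 units.

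The probes of a miRNA differ in how many of its bases they cover. For miR-328, the probe covering 17 bases had a total signal of 1.63 (Sham), 2.09 and 5.99 (Flut+Acy) and 819 (Flut+Acy+T). The probe covering 18 bases gave 7.61, 13.3, 22.9 and 468 in the same order. The longer probe thus read higher on Sham and Flut+Acy, where the shorter had none of its 10 spots well above background, and the shorter read higher on Flut+Acy+T. Among 69 miRNAs detected on all 4 arrays with a pair of probes above 0, all 69 kept 1 order on Sham and Flut+Acy, and 2 turned on Flut+Acy+T. These were miR-328 and miR-181d, another miRNA shown as lowered by the study. The longer miR-328 probe had 2 of 10 spots well above background on Sham, and 9 and 10 of 10 on Flut+Acy, so the turn rests on a shorter probe that was at background on 3 arrays.

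For miR-468, the probe covering 17 of its bases was the brightest of 4 on every array, at 5.13 (Sham), 7.73 and 9.05 (Flut+Acy) and 360 (Flut+Acy+T). All 5 of its spots were well above background on each array, which held for no other miR-468 probe. Its spots varied by a coefficient of 5.02% on Sham and 30.1% on Flut+Acy+T. On Flut+Acy+T the longest miR-335-3p probe, covering 22 bases, had the highest total signal of its 4 probes, at 517. There 18 of the 20 spots of this miRNA were well above background, and none were on the other 3 arrays. miR-135b had 10 of 20 spots well above background (Sham), then 5 and 6 (Flut+Acy) and 1 (Flut+Acy+T), and its spots at the brighter probe varied by 18.7% on Sham and 77.6% on Flut+Acy+T.

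**Figure D5:**
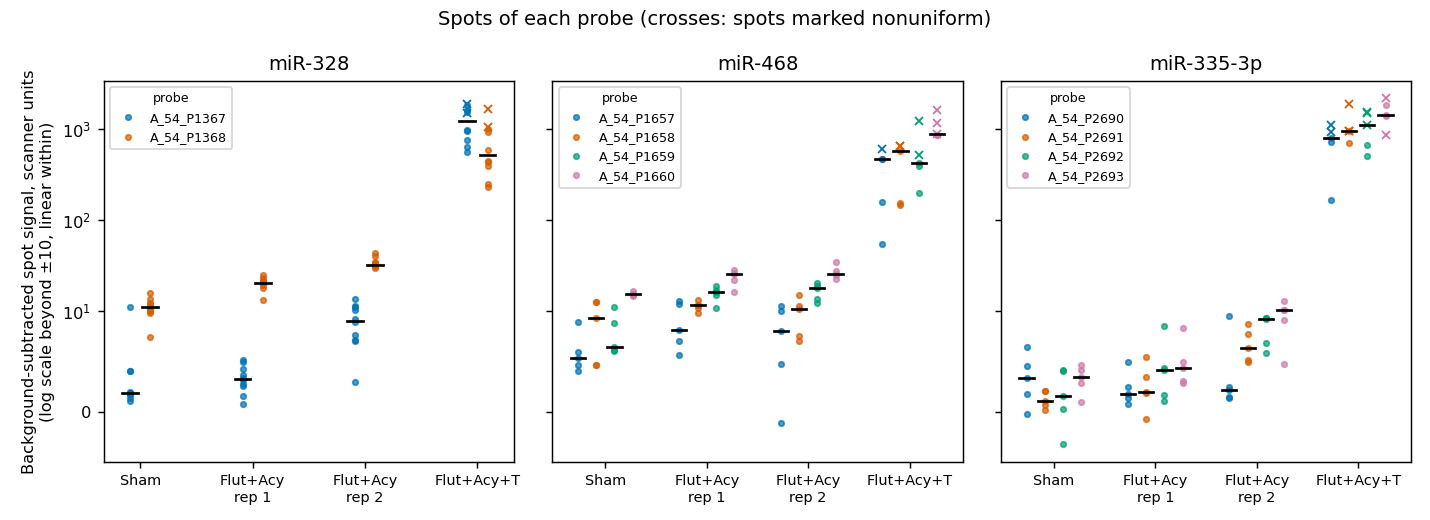
Background-subtracted signal of every spot (scanner units, log scale beyond 10 units from 0) by probe for miR-328, miR-468 and miR-335-3p on the 4 arrays; black lines are medians and crosses are spots marked nonuniform. The order of the miR-328 probes turns on Flut+Acy+T, at total signals of 819 and 468, and no miR-335-3p spot is well above background outside that array.

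The relatives and arms were compared by detection. miR-335-5p was detected on no array while its partner arm was detected on Flut+Acy+T. Among 164 arm pairs on the array, exactly 1 arm was detected for 70 pairs (Sham), 68 and 71 pairs (Flut+Acy) and 42 pairs (Flut+Acy+T). A lone detected arm was thus common on every array. miR-135a was detected nowhere and miR-135b on 3 arrays, so no comparison of levels between miR-135a and miR-135b was possible. The other arm, miR-135a*, was the 1 arm of its pair detected on Sham and on both Flut+Acy arrays. Neither arm was detected on Flut+Acy+T.

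The miRNAs most like each member were found by the root mean square difference of centered log2 levels over the 4 arrays. For miR-328 these were miR-468 (0.51), miR-196b (0.52) and miR-181d (0.57) among 75 candidates. For miR-468 they were miR-181d (0.23), miR-29c* (0.45) and miR-328 (0.51). All of these are shown as lowered by the study, and all were chosen on these arrays, so the likeness is not independent of that choice. For miR-135b they were miR-124 (0.13), miR-199b* (0.21) and miR-696 (0.37) among 188 candidates. miR-124, a neuronal miRNA, stood at a log2 level of 9.46 (Sham), 7.98 and 7.94 (Flut+Acy) and 9.46 (Flut+Acy+T). These likenesses rest on 4 values each and on shared arrays, and for miR-135b and miR-696 the Flut+Acy+T value is a reading that was not detected.

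The other miRNAs that the study shows as lowered are miR-29c*, miR-196b, miR-181d, miR-181b, miR-341 and miR-18a*. On total signals before normalization, 4 of these 6 (miR-29c*, miR-181b, miR-341 and miR-18a*) read higher than Sham on both Flut+Acy arrays. miR-196b (11.5 on Sham, 8.61 and 18.1 on Flut+Acy) and miR-181d (31.5, then 27.4 and 39.3) were lower than Sham on replicate 1 and higher on replicate 2. Of the 189 miRNAs detected on these 3 arrays, a set without miR-341 and miR-18a*, 184 read higher on both. miR-341 and miR-18a* were not detected on Sham. miR-18a* shared the pattern of miR-335-3p, with no detected signal on Sham or Flut+Acy and 525 units on Flut+Acy+T.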

How the data were processed

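Sertoli cell RNA was measured on 4 one-color Agilent miRNA arrays of 1 slide and 1 scan. The authors deposited scanner output made with Agilent Feature Extraction 9.5.3.1 (mm9) as intensities on a linear scale, with detection and nonuniformity flags, and a table of intensities that they had quantile-normalized in MATLAB. Both were used as deposited. Samples were grouped by their labels, which read control, flutamide and testosterone. The names Sham, Flut+Acy and Flut+Acy+T were matched to these from the study's description of its treatments.

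Control and viral features were left out. Quantile normalization of the total signals of 567 mouse miRNAs used all 4 arrays. Signals under 5.46 units were set to that floor (the lowest normalized detected signal of each array, median of the 4) before log2. In the deposited table this floor was below 0 and 1 unit was used. For counts over all miRNAs only, limma 3.58.1 (R 4.3.3) was run on the 298 miRNAs with any detected signal, all 3 groups in 1 fit, with p-values adjusted by Benjamini and Hochberg at 0.05. miR-135a and miR-335-5p were detected nowhere and entered no test. The limma step was also run on simulated data with the same noise on every array. That setting leaves out the differences between arrays seen here, so nothing is concluded from it. The members and lists were chosen with earlier results of these data known. Named miRNAs are the members, the 3 most like each member detected on at least 2 arrays, and the other miRNAs the study shows as lowered. Precision is limited by the number of arrays. RefSeq (GRCm38.p6) was used for names, neighbors and sequences. Alternatives were other scalings, background correction, spot summaries, filters, floors and left-out arrays.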

Additional observations from a re-analysis of the deposited data

How the results depend on the processing

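The difference of Flut+Acy from Sham stayed negative for miR-328, miR-468 and miR-135b under every scaling except no normalization between arrays, where it was 1.19, 0.67 and 0.25. It moved by more than the SD of the Flut+Acy arrays with the 75th percentile of miRNAs detected on all arrays (-0.16, -0.68 and -1.09), normexp with an offset of 50 (-0.33, -0.43 and -0.50) and the deposited values (-1.42, -1.63 and -2.13). For miR-468 it was -1.72 and for miR-135b -1.96 when the Flut+Acy+T array was left out of the quantile normalization, and for miR-135b -1.93 with the 75th percentile of all miRNAs. Leaving out 1 Flut+Acy array gave -1.15 to -0.63 for miR-328, -1.53 to -1.24 for miR-468 and -1.67 to -1.55 for miR-135b. The difference of miR-135b between Flut+Acy+T and Sham was 0.17 as an undetected reading and -0.52 in the deposited values. miR-335-3p in Flut+Acy against Sham, miR-135a and miR-335-5p gave no value under any alternative because they were not detected.

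The 47 miRNAs at least 2-fold lower in Flut+Acy became 13 with the 75th percentile of miRNAs detected on all arrays, 73 with that of all miRNAs, 3 with normexp and 1 with no normalization. The 52 at least 2-fold higher on Flut+Acy+T than on Flut+Acy became 33 with normexp, 18 when all arrays had to detect a miRNA and 126 with no filter. limma passed 161 of 298 miRNAs for Flut+Acy against Sham, 63 with no filter and 117 to 218 under the other alternatives for that fit. The single-factor analysis of variance named in the methods passed 0 after adjustment and 130 at an unadjusted p under 0.05. That analysis covered 243 miRNAs, since 55 had no spread. Like limma, it took its spread from the 2 Flut+Acy arrays alone. No paired analysis was possible because the groups share fewer than 2 replicate numbers. On Flut+Acy+T no signal under 238 units was detected, which limits what that array could show. That value is not a cutoff, since miR-135b at 257 units and miR-135a at 249 units were not detected there.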

Other observations

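The Flut+Acy arrays, the only pair of 1 group, differed more for some members than for others. Total signal was 15.4 and 28.9 units for miR-328 and 4.39 and 9.26 units for miR-335-3p, which was detected on neither, while miR-468 read 19.6 and 20.3. Over the 189 miRNAs detected on Sham and Flut+Acy, the log2 signals of the Flut+Acy arrays had a correlation across miRNAs, not across replicates, of 0.997, and those with Sham were 0.865 and 0.867.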
